A study of Homo sapiens with 4 samples.

Results

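Kinesins are motor proteins that hydrolyse ATP to move along microtubules or to take their ends apart. Some build the spindle, move chromosomes and complete cytokinesis, and in cycling cells their transcripts are known to peak in late cell cycle phases. Others carry organelles, vesicles and protein complexes in interphase, and their transcripts are not known as cell cycle markers.

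The genes examined were those whose array symbol is KIF with digits and an optional letter, or KIFC1, KIFC2 or KIFC3. The rule found 41 genes of the 19775 that the arrays could name. Of the 41, 13 were listed as mitotic kinesins, 15 as transport kinesins and the other 13 as neither or as acting in both settings. Where a gene had several probe sets, the brightest by its mean over the 4 arrays was used.

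The arrays measured total RNA of SKOV3 cells, a human cell line established from an ovarian carcinoma. The control group was 2 arrays of SKOV3 cells without rhSTIP1, and the other group was 2 arrays of SKOV3 cells treated with rhSTIP1, read as recombinant human STIP1, a cochaperone that cells also secrete. The labels give neither dose nor duration. They do not tie the arrays to separate cultures either, so a p-value here reflects the spread between these samples alone, and that spread may be technical. Of 8 epithelial and ovarian carcinoma markers 7 were measured above the level used for testing, among them EPCAM, ERBB2 and PAX8, while MUC16 was below it on every array. The summed signal of those 8 markers ran from 49338 to 55120 per array. It was 128 to 255 for 4 leukocyte markers, 227 to 361 for 5 endothelial markers and 327 to 603 for 6 fibroblast markers. Of these lists 1 (ITGAM), 1 (PECAM1) and 3 (COL1A1, COL1A2 and DCN) reached the level used for testing.

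The 2 arrays of a group were not alike in every respect. For ACTB the 3′ probe set gave 8.79 times the signal of the 5′ probe set on rhSTIP1 array 2 and 2.45 to 2.74 times on the remaining arrays, a ratio that grows as RNA degrades. For GAPDH it was 0.987 to 1.32. Its part in the results was not tested, and values without single arrays are given beside the counts.

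Stretches before the start of several kinesin genes are shown first. The rule did not use their sequences, but the lists of mitotic and transport kinesins follow known roles. Whether these stretches have a part in the values on the arrays was not tested. Cell cycle genes expressed late in the cycle are known for promoters with a CCAAT box and a cell cycle genes homology region (CHR). RefSeq (GRCh38.p14) gave the 300 bases around the start, 250 before and 50 after, of 29 of the 34 kinesins that were tested. Entries for KIF13B, KIF19, KIF21B, KIFC2 and KIFC3 were not used here. Each window was searched on both strands for CHR (TTTGAA), for CCAAT and for an E2F site (TTTGGCGC or TTTCGCGC). No letters of these motifs overlapped in the kinesin promoters printed.

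TTTGAA was present in 9 of 12 mitotic kinesin promoters (75.0%), 1 of 9 transport kinesin promoters (11.1%), 0 of 8 promoters of the remaining kinesins and 15.4% of 27305 promoters of all genes. The letters began before the start in 5 of the 9 mitotic kinesins, and after it alone in the other 4, beside 13.8% and 1.66% of all promoters. CCAAT was present in 10 of 12 (83.3%), 3 of 9 (33.3%), 2 of 8 (25.0%) and 35.7%, in the same order. Both occurred in 8 of 12 mitotic kinesin promoters and in 6.08% of all promoters. The E2F letters were found in 1 mitotic kinesin promoter, that of KIF15, and in 1.18% of all promoters. A match is a description of the letters and does not show a bound site.

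The 200 bases before the start are printed for 6 mitotic kinesins, the 4 with the smallest p, then KIF4A and KIF20A, and for 3 transport kinesins, with matched letters in capitals. KIF4A, KIF20A and KIF5B were chosen after their values and sequences were seen. KIF2C (chr1:44739637-44739836), KIF23 (chr15:69414149-69414348), KIF15 (chr3:44761594-44761793), KIF11 (chr10:92592930-92593129), KIF4A (chrX:70289904-70290103) and KIF20A (chr5:138178912-138179111) are the mitotic kinesins. KIF1C (chr17:4997750-4997949), KIF3B (chr20:32277451-32277650) and KIF5B (chr10:32056426-32056625) are the transport kinesins. All are on the plus strand except KIF5B, which lies on the minus strand, and each is written 5′ to 3′ along its gene. Beside the windows of KIF23, KIF11 and KIF4A, where CCAAT precedes TTTGAA, KIF15 has the E2F letters directly before TTTGAA in reverse, KIF20A has CCAAT alone and KIF2C has none of the 3. Of the transport kinesins KIF5B has TTTGAA and CCAAT, KIF3B has CCAAT and KIF1C has none.
KIF2C: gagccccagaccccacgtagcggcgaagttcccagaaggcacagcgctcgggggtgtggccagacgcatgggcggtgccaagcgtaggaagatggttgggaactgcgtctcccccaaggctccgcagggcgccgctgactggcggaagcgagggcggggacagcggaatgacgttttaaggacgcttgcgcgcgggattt
KIF23: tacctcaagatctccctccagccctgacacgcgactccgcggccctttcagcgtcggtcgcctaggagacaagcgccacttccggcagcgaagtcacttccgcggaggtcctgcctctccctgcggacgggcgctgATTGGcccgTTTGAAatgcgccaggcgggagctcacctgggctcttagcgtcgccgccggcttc
KIF15: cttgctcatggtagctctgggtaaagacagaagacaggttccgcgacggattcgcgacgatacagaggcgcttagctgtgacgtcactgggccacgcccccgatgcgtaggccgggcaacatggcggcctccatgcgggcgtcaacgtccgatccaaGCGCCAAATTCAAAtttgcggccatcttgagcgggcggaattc
KIF11: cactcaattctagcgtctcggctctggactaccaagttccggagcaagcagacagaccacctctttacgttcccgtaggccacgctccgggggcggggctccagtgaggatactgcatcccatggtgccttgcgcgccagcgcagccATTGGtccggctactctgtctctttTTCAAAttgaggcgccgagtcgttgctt
KIF4A: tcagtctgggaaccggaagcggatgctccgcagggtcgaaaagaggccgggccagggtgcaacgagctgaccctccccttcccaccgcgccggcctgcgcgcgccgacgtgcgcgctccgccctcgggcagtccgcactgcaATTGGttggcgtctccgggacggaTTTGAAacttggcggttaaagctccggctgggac
KIF20A: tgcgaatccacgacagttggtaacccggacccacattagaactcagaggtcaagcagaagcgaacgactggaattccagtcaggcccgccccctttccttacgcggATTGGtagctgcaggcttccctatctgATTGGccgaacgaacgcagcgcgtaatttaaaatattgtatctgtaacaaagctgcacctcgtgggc
KIF1C: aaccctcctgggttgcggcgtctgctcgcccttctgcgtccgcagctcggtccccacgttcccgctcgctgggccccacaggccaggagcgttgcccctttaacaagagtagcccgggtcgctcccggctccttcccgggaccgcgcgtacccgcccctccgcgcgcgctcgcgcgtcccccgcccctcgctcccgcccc
KIF3B: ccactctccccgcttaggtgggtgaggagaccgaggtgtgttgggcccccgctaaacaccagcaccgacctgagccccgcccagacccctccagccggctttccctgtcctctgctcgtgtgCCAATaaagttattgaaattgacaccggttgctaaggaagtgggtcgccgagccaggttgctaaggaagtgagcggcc
KIF5B: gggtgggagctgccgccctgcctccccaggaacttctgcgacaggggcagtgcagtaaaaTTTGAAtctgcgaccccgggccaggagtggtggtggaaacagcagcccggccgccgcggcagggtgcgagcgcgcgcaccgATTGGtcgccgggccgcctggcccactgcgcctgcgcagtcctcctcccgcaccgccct

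Positions are those of the first base of a match along the gene, also where the motif is read in reverse. In KIF23 TTTGAA lay 55 bases before the start and CCAAT, in reverse, 64 bases before it. The 2 motifs stood 28 and 53 bases before the start in KIF11, 34 and 58 in KIF4A, and 10 and 45 in KIF18A. In the other 4 mitotic kinesins with both motifs TTTGAA lay after the start, which the printed stretches do not cover. Its match began at position 2 in KIF14, 3 in KIF18B, 5 in KIFC1, and 25 and 31 in KIF20B, counted from 1 at the start. In KIF5B, the 1 transport kinesin with TTTGAA, the letters lay 140 bases before the start.

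Among tested mitotic kinesins both rhSTIP1 arrays had a lower signal than either control for 12 of 12, and for 12 of 12 the group difference was at least 1.5-fold. Of all 12296 tested genes 3.79% were separated lower in this way, with no overlap between the groups and a difference of at least 1.5-fold, and 14.9% were lower without overlap at any size. The median log2 fold change of the 12 was −1.44, with a range from −1.82 to −1.11, beside a median of 0.02 over all tested genes. A gene was tested where its mean signal reached 69.4, and fold changes are on the log2(signal + 16) scale with the standard error after ±. In the fit without the replicate number, no mitotic kinesin passed limma's test with Benjamini-Hochberg adjustment over all genes (adjusted p from 0.702 to 0.999). No other gene passed either, 0 of 12296. With that number (array 1 or 2 of a group) as a block 12 of the 12 passed, beside 2.01% of all genes. The labels do not say what the number marks, and 2 pairs are too few to show a pairing. The block also leaves fewer residual degrees of freedom than the 2 of the fit without it. Without the block, limma called 12 of the 12 at an unadjusted p under 0.05, all lower, against 2.64% of all tested genes. With control array 1 left out it called 6 of the 12 (all genes, 1.28% lower), and with control array 2 left out 12 (3.99%). Omitting an rhSTIP1 array gave 9 (array 1, 2.07%) or 8 (array 2, 3.16%). RNA of whole cultures was measured, so fewer cells in mitosis and less RNA per cell cannot be told apart. KIF2B, listed as mitotic, was below the level for testing, with signals of 7.75 to 30.7.

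**Figure D1:**
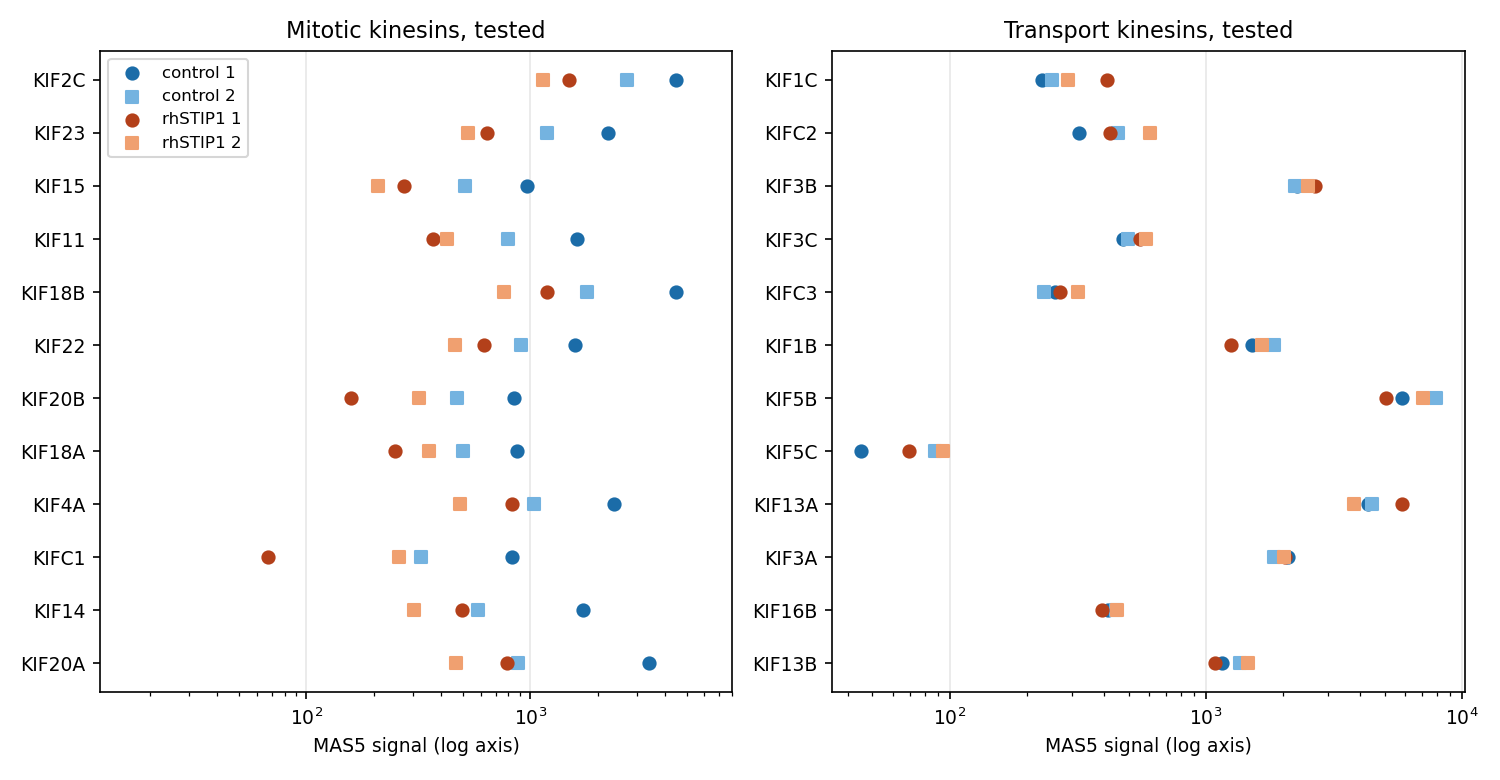
MAS5 signal (log axis) of each tested mitotic kinesin (left) and transport kinesin (right) on each array, ordered by unadjusted p; circles are array 1 and squares array 2 of each group, control in blue and rhSTIP1 in orange. For all 12 mitotic kinesins both orange points lie to the left of both blue points, and control 1 lies farthest to the right.

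The 3 kinesins that build the bipolar spindle had a median log2 fold change of −1.49. KIF11, the tetrameric motor that pushes spindle poles apart, had signals of 1611 and 792 in control cells against 367 and 427 in treated cells, for a log2 fold change of −1.48 ± 0.35. KIF15, which can also keep the poles apart, had 966 and 510.4 in control cells against 273 and 209 in treated cells, −1.49 ± 0.35. In both genes the lower control was above the higher rhSTIP1 array by 0.87 on the log2 scale, and the controls differed from each other by 1.01 for KIF11 and 0.90 for KIF15. KIFC1, a minus-end motor that focuses spindle poles, had 830.4 and 325 in control cells against 67.4 and 260.1 in treated cells, −1.82 ± 0.62 or 3.54-fold lower. Its value of 67.4 in rhSTIP1 array 1 was under the level for testing, the gap between the groups was only 0.30, and the rhSTIP1 arrays differed by 1.73.

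The 5 kinesins that move chromosomes or act on microtubule ends had a median of −1.28. KIF2C, which takes apart microtubules at centromeres and so helps to correct wrong attachments, had signals of 4462 and 2706 in control cells against 1484 and 1142 in treated cells, −1.41 ± 0.30 (limma, unadjusted p = 0.00192, adjusted p = 0.702). It was the 1 mitotic kinesin whose gap between the groups, 0.86, exceeded the spread within both groups, 0.72 between controls and 0.37 between rhSTIP1 arrays. KIF18B, which acts at the plus ends of astral microtubules, had 4473 and 1795 in control cells against 1194 and 763 in treated cells, −1.55 ± 0.44. KIF18A, which damps chromosome oscillations, had 875 and 502 against 249.8 and 354, −1.11 ± 0.34, the smallest difference of the 12. KIF22, a motor on chromosome arms, had 1585 and 911 in control cells against 619 and 460.0 in treated cells, −1.15 ± 0.32. KIF4A, a chromosome and midzone motor, had 2379 and 1042 against 833 and 488, −1.28 ± 0.43. KIF4B, a near-identical copy of KIF4A, was on the mitotic list but had no probe set in the annotation used here, and whether its RNA adds to the signal of KIF4A was not tested.

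The 4 kinesins of the spindle midzone and of cytokinesis had a median of −1.44. KIF23, the motor subunit of centralspindlin, had signals of 2216 and 1185 in control cells against 641 and 528 in treated cells, −1.45 ± 0.33. KIF20B, which acts late in cytokinesis, had 847 and 472 in control cells against 159 and 320.3 in treated cells, −1.42 ± 0.40. Both were apart between groups, by 0.87 for KIF23 and 0.54 for KIF20B. KIF20A, which carries the chromosomal passenger complex to the midzone, had 3399 and 882 in control cells against 786 and 466 in treated cells, −1.49 ± 0.58. KIF14, which binds citron kinase in cytokinesis, had 1719 and 582 against 498 and 302, −1.33 ± 0.49. For KIF20A and KIF14 the controls differed by 1.93 and 1.54, while the groups were apart by only 0.16 and 0.22.

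The arrays of a group did not carry equal levels of mitotic kinesins. Control array 2 was the lower of the controls for 12 of 12, with a median difference of −0.95. Array 1 of the rhSTIP1 group was in turn lower than control array 2 for 12 of 12, with a median difference of −0.86. Between the rhSTIP1 arrays the order differed by gene, array 2 being the higher for KIF11, KIF18A, KIF20B and KIFC1 and the lower for the other 8. Across all tested genes the corresponding medians were 0.03 for control array 2 minus control array 1 and −0.04 for rhSTIP1 array 1 minus control array 2. The spread between controls, a median of 0.95 over the 12, was larger than the gap between groups for 11 of them.

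**Figure D2:**
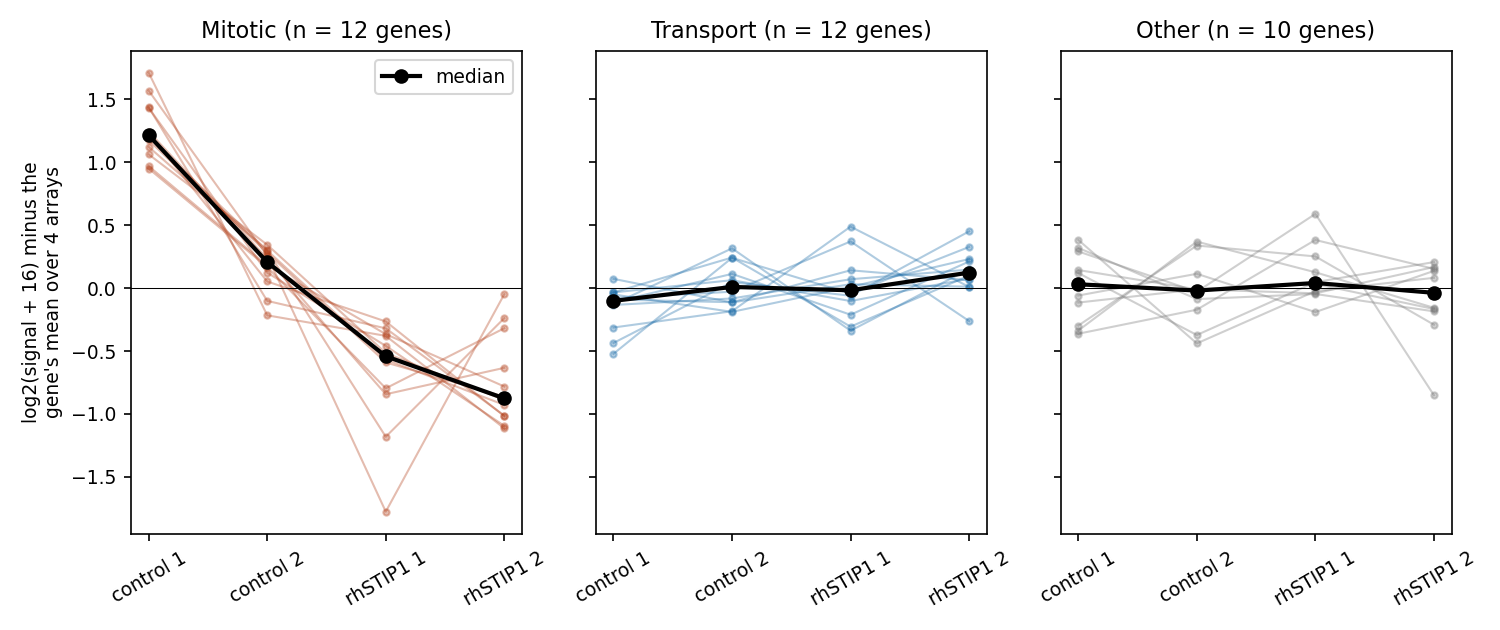
log2(signal + 16) of each tested kinesin minus that gene's mean over the 4 arrays, by array, with 1 coloured line per gene and the class median in black; lines only join the values of a gene, since arrays of a group have no order. The mitotic median is highest on control 1 and lower on both rhSTIP1 arrays than on control 2, while the medians of the transport and remaining kinesins stay near 0.

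The count of separated mitotic kinesins was also taken with single arrays left out. Without control array 1 the median was −0.94 and 10 of 12 were separated lower, KIF14 and KIF20A being lost, beside 5.32% of all genes. Without control array 2, rhSTIP1 array 1 or rhSTIP1 array 2 it was 12 of 12, with medians of −1.92, −1.59 and −1.28, beside 8.41%, 6.69% and 7.71% of all genes. Of these, rhSTIP1 array 2 is the one with the high ACTB ratio.

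Further values came from probe sets that had not been chosen to represent a gene. Of the mitotic kinesins KIF2C, KIF14 and KIF22 had a second probe set above the level for testing. The log2 fold changes of the chosen and second probe sets were −1.41 and −1.46 for KIF2C, −1.33 and −1.37 for KIF14, and −1.15 and −1.10 for KIF22. Those probe sets read the same RNA samples and are no further replicates. In the second probe set of KIF14 the groups overlapped, with 1739 and 466 in control cells against 508 and 225 in treated cells. Dim second probe sets disagreed for KIF20B, at 0.05 and −0.03, with signals of 5.06 to 68.1, and the second of KIF23 had −0.58.

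Transport kinesins were not separated between the groups by 1.5-fold. The 12 that were tested had a median log2 fold change of 0.16 and a range from −0.21 to 0.50, and 0 of 12 were separated by at least 1.5-fold in either direction, against 5.69% of all tested genes, a count near that background. By limma's test 0 of the 12 had an unadjusted p under 0.05 (all tested genes, 1.04% higher and 2.64% lower), and all had an adjusted p of 0.999. The difference between the class medians, mitotic minus transport, was −1.59, and it was not tested, because 2 arrays against 2 cannot give an exact two-sided p below 0.333. Ranges did not meet, since the mitotic kinesin closest to 0 was KIF18A at −1.11 and the lowest transport kinesin was KIF1B at −0.21. The median level of the mitotic class minus that of the transport class, on the log2(signal + 16) scale, was 1.14 and 0.02 in control cells against −0.47 and −1.06 in treated cells. Both rhSTIP1 arrays were thus below both controls in this quantity, and control 1 stood apart from control 2 by more than control 2 did from rhSTIP1 array 1.

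KIF1C, a vesicle and mRNA carrier, had the smallest unadjusted p of the transport kinesins, 0.126 by limma (adjusted p = 0.999). Its signals were 229 and 252 in control cells against 411 and 290.4 in treated cells, for a log2 fold change of 0.50 ± 0.29, and the groups did not overlap. KIFC2, a minus-end motor, had 321 and 455 in control cells against 421 and 607 in treated cells, 0.39 ± 0.30, with overlapping groups. The kinesin-2 motors KIF3B and KIF3C were higher in both rhSTIP1 arrays, by less than their standard errors. KIF3B, which drives transport into cilia with KIF3A, had 2260.2 and 2227 against 2658 and 2516, 0.20 ± 0.22. KIF3C had 477 and 495 against 552 and 583, 0.22 ± 0.24.

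KIFC3, a minus-end motor at cell junctions, had 258 and 233 in control cells against 269.7 and 317 in treated cells, 0.24 ± 0.27. KIF1B, a carrier of mitochondria and synaptic vesicle precursors, had 1515 and 1839 in control cells against 1252 and 1663 in treated cells, −0.21 ± 0.26. By their chosen probe sets KIF1C, KIF3B, KIF3C and KIFC3 were therefore the 4 whose arrays did not overlap, all higher. Of all tested genes 14.0% were higher without overlap at any size. None of these 4 reached 1.5-fold, and for each of them another probe set above the level for testing had overlapping groups. Of probe sets above that level that were not chosen, those without overlap were lower for KIF3A (−0.30) and KIF5B (−0.36) and higher for KIF13A (0.16). With 1 array left out, KIF5C and KIFC2 were separated higher by 1.5-fold without control array 2, KIFC2 without rhSTIP1 array 1 and KIF1C without rhSTIP1 array 2, where 16.1%, 12.6% and 11.6% of all genes were separated. Among probe sets above the level for testing, log2 fold changes differed in sign for KIF3A, at 0.04 and −0.30, for KIF1B, at −0.21, 0.10 and 0.03, and for KIF13A, at 0.11 for the chosen one and −0.23, 0.37, 0.16 and −0.15 for the others. KIFC3 had 0.24 and 0.88.

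The conventional kinesin heavy chain KIF5B, which moves many cargoes with kinesin light chains, had −0.19 ± 0.25. KIF5C had 0.28 ± 0.44, KIF13A 0.11 ± 0.26, KIF3A 0.04 ± 0.23, KIF16B −0.03 ± 0.25 and KIF13B 0.00 ± 0.26, all with overlapping groups in the chosen probe sets. KIF5B signals were 5821 and 7919.9 in control cells against 5028 and 7064 in treated cells, so array 2 was the higher in each group. For KIF5B the 95% interval of limma's fit ran from −0.78 to 0.40 and for KIF3A from −0.48 to 0.57, and changes within those bounds could not be told from 0 with these arrays. KIF1A, KIF5A and KIF17, carriers known mainly from neurons, were below the level for testing, with signals of 6.21 to 83.2. Of these 3, KIF5A had 46.0 and 61.1 in control cells against 25.8 and 6.21 in treated cells, levels at which MAS5 signals vary widely.

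**Figure D3:**
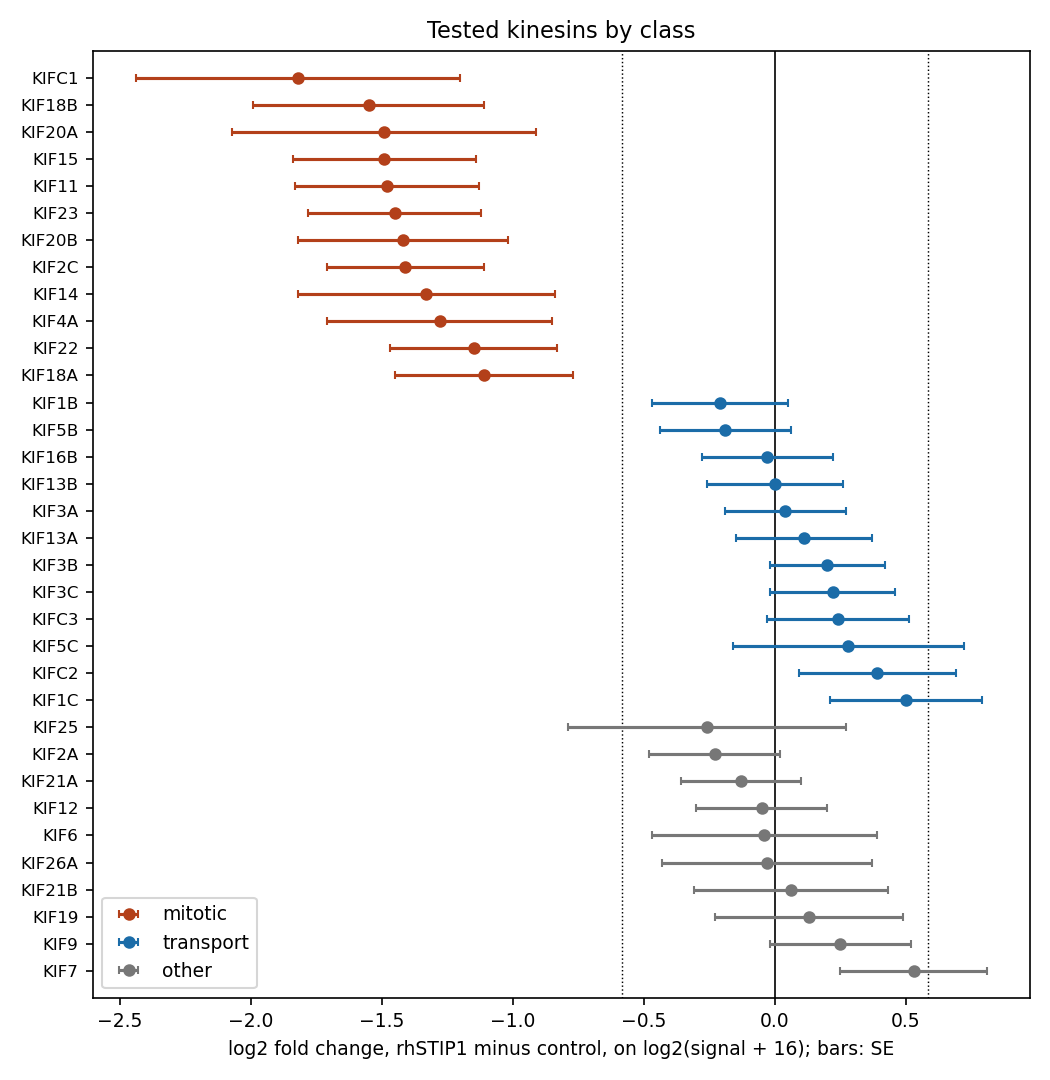
log2 fold change, rhSTIP1 minus control, of the 34 tested kinesins with standard errors, grouped by class; dotted lines mark 1.5-fold. The 12 mitotic kinesins lie between −1.82 and −1.11, and the 22 others between −0.26 and 0.53.

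Of the remaining kinesins 0 of 10 tested members were separated by 1.5-fold, with a median of −0.04, a count near the 5.69% of all tested genes. With 1 array left out, KIF7 was separated without control array 2 and without rhSTIP1 array 2, and KIF25 without rhSTIP1 array 1, beside 16.1%, 11.6% and 12.6% of all genes. KIF2A is a close relative of KIF2C and works both at spindle poles and in neurons. It had 2075 and 1561 in control cells against 1606 and 1458 in treated cells, −0.23 ± 0.25, with overlapping groups, beside −1.41 for KIF2C. KIF7, a ciliary regulator of Hedgehog signalling, had 203 and 234 against 351 and 297, 0.53 ± 0.28, and its arrays did not overlap. KIF9, a motor of motile cilia, had 904 and 638 in control cells against 859 and 961 in treated cells, 0.25 ± 0.27. Other KIF9 probe sets above the level for testing had 0.38, higher without overlap, and −0.49, with overlapping groups. KIF21A, which limits microtubule growth at the cell cortex, had 1609 and 1445 against 1490.0 and 1295, −0.13 ± 0.23.

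The other tested members were KIF25 (−0.26), KIF19 (0.13), KIF21B (0.06), KIF12 (−0.05), KIF6 (−0.04) and KIF26A (−0.03), all with overlapping groups. KIF24, KIF26B and KIF27 were below the level for testing, with signals of 6.45 to 78.8. Counting KIF2A as mitotic changed the median of that class to −1.42 and left 12 separated, of 13.

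Transcripts of proteins that work with mitotic kinesins were mostly lower as well. Of 17 listed partners that were tested, 15 were separated lower by at least 1.5-fold (88.2%, against 3.79% of all tested genes). Their median was −1.20, and in the fit without the replicate number 0 passed limma's test over all genes. INCENP, a scaffold of the chromosomal passenger complex, entered the test through its controls, with 145 and 92.6 in control cells against 60.8 and 46.9 in treated cells, and without it the count was 14 of 16. With a filter at the 70th percentile it was 13 of 15, against 3.27% of all genes. Without control array 1 it was 12 of the 17, with a median of −0.64, against 5.32% of all genes. It was 15 without control array 2, rhSTIP1 array 1 or rhSTIP1 array 2, with medians of −1.70, −1.50 and −0.87, against 8.41%, 6.69% and 7.71%. These settings were chosen for the partners after the data were seen, and the list of partners was itself chosen with earlier results of these data known. CENPE, a kinesin under a different symbol that carries chromosomes to the metaphase plate, had 1755 and 1069 in control cells against 593 and 473 in treated cells, −1.35 ± 0.30. AURKB, the kinase of the chromosomal passenger complex that controls KIF2C and KIF20A, had 2329 and 761 against 419 and 219, −2.08 ± 0.52. CDCA8, a subunit of the same complex, had 1788 and 879.7 against 556 and 401, −1.38 ± 0.37. TPX2, which binds KIF11 on the spindle, had 3713 and 2030.2 against 1367 and 828, −1.35 ± 0.36. The 2 partners that were not separated were BIRC5, at −1.20 ± 0.52 with overlapping groups, and KIFBP, an inhibitor of several kinesins, at −0.03 ± 0.30, and like INCENP they were chosen after their values were seen.

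The light chains and adaptors that tie transport kinesins to cargo were not separated between the groups by 1.5-fold. Of 19 tested, 0 were separated and the median was 0.11, a count near the 5.69% of all tested genes. MAPK8IP2, a scaffold that binds light chains, had 0.52 ± 0.43 with overlapping groups. PLEKHM2, which links kinesin-1 to lysosomes, had 0.29 ± 0.25 and FEZ1 0.30 ± 0.27, both higher in both rhSTIP1 arrays. The light chain KLC4 had −0.32 ± 0.32. Of the 19, 4 were higher and 0 lower without overlap at any size, beside 14.0% and 14.9% of all tested genes.

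Cytoplasmic dynein and dynactin move cargo the opposite way along microtubules. Of 21 tested members 0 were separated by 1.5-fold, a count near the 5.69% of all tested genes, and the median was 0.09. DYNLT1 had 0.33 ± 0.19, DCTN6 0.27 ± 0.21 and DCTN4 −0.33 ± 0.22, each without overlap. Of the 21, 7 were higher and 1 was lower without overlap at any size, beside 14.0% and 14.9% of all tested genes. NDE1, a dynein regulator that also acts in mitosis, had −0.67 ± 0.41, with 1638 and 677 in control cells against 778 and 552 in treated cells.

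**Figure D4:**
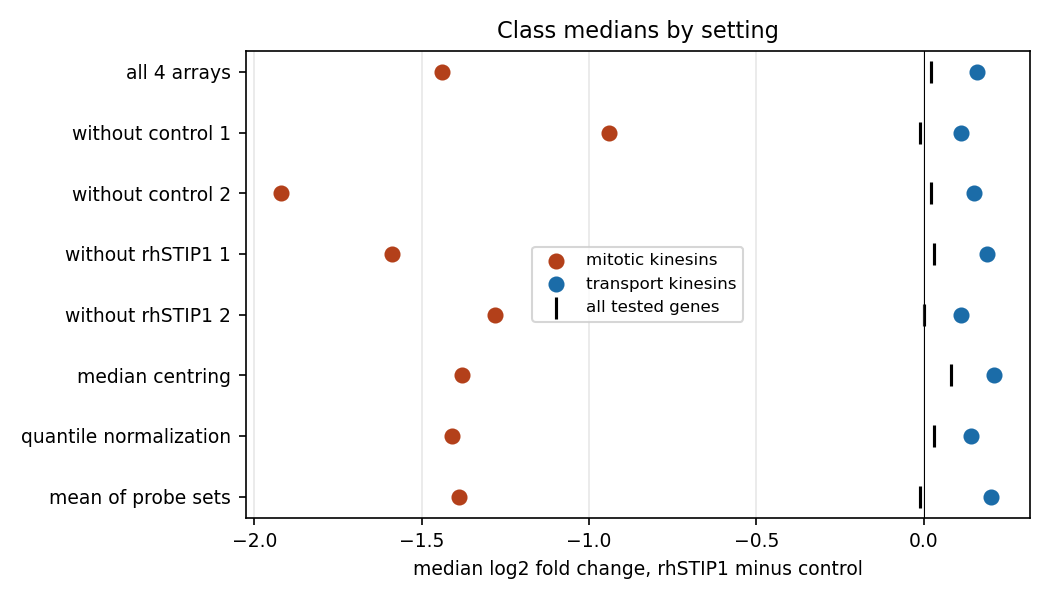
Median log2 fold change, rhSTIP1 minus control, of the tested mitotic kinesins (orange), transport kinesins (blue) and all genes tested (black bars), with all 4 arrays, with 1 array left out, and with 3 other settings. The mitotic median is −1.92 at its lowest, without control array 2, and −0.94 at its highest, without control array 1, and the transport median lies between 0.11 and 0.21 in the settings drawn.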

How the data were processed

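The values deposited by the authors are linear intensity values: MAS5 probe set signals. Per the submitters' processing notes the tool was Affymetrix Expression Console 1.1. Dim MAS5 signals vary widely between arrays, and no detection calls were used. Here genes were named through the platform annotation, from probe sets with exactly 1 symbol. The 12296 genes whose mean signal reached 69.4, the median over all probe sets other than controls, entered the test. The groups were compared on log2(signal + 16), without further scaling, by lmFit and eBayes with trend in limma 3.58.1 (R 4.3.3). Tests were two-sided and adjusted by Benjamini-Hochberg. The fit of all 4 arrays without the replicate number had 2 residual degrees of freedom, and its prior had 5.56. With that number as a block, or with 1 array left out, fewer residual degrees of freedom remained. The number of arrays limits the precision.

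The steps were tested on simulated data of 12296 genes. They recovered 2 of 67 genes with a 2-fold change, 29 of 67 with a 4-fold change and 57 of 66 with a 16-fold change, with 3 false calls. Of the 67 genes with a 2-fold change 60 were separated by at least 1.5-fold. Unchanged genes separated in this way were not counted. The simulated arrays varied independently, without deviations that several genes or arrays share.

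Members and lists were chosen with earlier results of these data known. Named were every kinesin, with signals for the tested mitotic ones and for the 6 transport and 4 other kinesins with the smallest p, 4 genes of each further list, and CENPE. Signals of KIF5B and KIF5A, and BIRC5, KIFBP and INCENP, were added after their values were seen. Alternatives covered pseudocount, filter, scaling, probe sets, eBayes, the replicate number and each array left out.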

Additional observations from a re-analysis of the deposited data

How the results depend on the processing

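All 12 tested mitotic kinesins kept a log2 fold change below 0 under the 15 alternatives that were run for single genes. Of them 12 were separated lower by at least 1.5-fold in most settings. Without control array 1 it was 10, beside 5.32% of all genes. With probe sets of a gene averaged it was 11 (KIF20B overlapping), beside 3.51%. With 1 array left out the count ran from 10 to 12, the mitotic median from −1.92 to −0.94 and the difference from the transport median from −2.07 to −1.05. The lone array of a group is then assumed to vary like the 2 of the other.

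The transport median was 0.04 when no filter was set and also when it was raised to the 70th percentile, against 0.16. Separated transport kinesins numbered 1 of 15 with no filter (KIF5A, lower), where 6.23% of all genes were separated lower. With 1 array left out they ran from 0 to 2. These were KIF5C and KIFC2 without control array 2, KIFC2 without rhSTIP1 array 1 and KIF1C without rhSTIP1 array 2, all higher. In the same order 16.1%, 12.6% and 11.6% of all genes were separated in either direction. Genes passing over all genes numbered 1 with a filter at the 70th percentile, 2 with robust eBayes and from 0 to 6 with 1 array left out.

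Arrays with the same number in both groups deviated together (correlation 0.36 across tested genes, which are not independent), but the labels do not say what the number marks, and 2 pairs are too few to show a pairing. With the replicate number as a block 247 genes passed, 2.01% of those tested, 184 of them lower. The count was 12 of 12 for mitotic kinesins (limma, adjusted p from 1.9e-04 for KIF18B to 0.0389 for KIF18A). It was 14 of 17 for partners of mitotic kinesins and 0 of 12 for transport kinesins.

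Fold changes near 0 changed sign in these cases. Median centring gave KIF12 0.00, KIF13B 0.05, KIF16B 0.03, KIF26A 0.02 and KIF6 0.01, and quantile normalization gave KIF13B 0.03, KIF16B 0.01, KIF26A 0.01 and KIF6 0.01. The mean of probe sets gave KIF19 −0.11, KIF1B 0.24, KIF3A −0.13 and KIF9 −0.11. With 1 array left out the range was −0.22 to 0.11 for KIF12, −0.21 to 0.42 for KIF13A, −0.21 to 0.21 for KIF13B, −0.12 to 0.06 for KIF16B, −0.36 to 0.47 for KIF21B and −0.98 to 0.46 for KIF25. It was −0.39 to 0.32 for KIF26A, −0.05 to 0.14 for KIF3A, −0.43 to 0.06 for KIF5B, −0.10 to 0.66 for KIF5C and −0.36 to 0.28 for KIF6. The cause of these changes was not tested. Without detection calls, dim kinesins such as KIF5C and KIF6 could be at background.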
